A study of Mus musculus with 12 samples.

Results

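The 7 genes Pou5f1, Sox2, Nanog, Sall4, Lin28a, Utf1 and Dppa4 were followed as the core pluripotency network in mouse epiblast stem cells (EpiSCs), pluripotent cells that resemble the epiblast after implantation. They were chosen by name, with earlier results of these data known. Each was read from the brightest probe, by its mean of all arrays, among those annotated to that gene alone. All 7 had such a probe, out of 19938 genes that had one. Total RNA was hybridised to 12 single-colour Affymetrix arrays, with 3 arrays in each of 4 groups. CHIR cells were given CHIR99021, an inhibitor of glycogen synthase kinase 3 that stabilises beta-catenin, at 3 µM for 2 h. XAV cells were given XAV939, a tankyrase inhibitor that slows the turnover of Axin and thereby promotes the loss of beta-catenin, at 2 µM. CHIR + XAV cells were given both compounds at those doses, and NT cells were left untreated. The exposure to XAV939 is 2 h in the sample labels and 4 h in the design text. All 4 groups shared the genetic background 129 and, per the design text, 12 h without serum before treatment, although the growth medium is recorded with 10% serum. A further label describes them as mouse embryonic stem cells. Whether replicate arrays represent independent cultures is not recorded, so the p-values and intervals measure spread that may be only technical.

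Pluripotency is held by a small circuit of transcription factors that activate their own genes and each other's and keep genes of the germ layers silent. OCT4 (from Pou5f1) and SOX2 bind DNA side by side at a composite octamer and Sox element, and NANOG shares many of their sites. This circuit works in both naive cells of the early blastocyst and primed EpiSCs, while factors such as ESRRB and ZFP42 mark the naive state and FGF5 and OTX2 the primed one. Beta-catenin relieves repression of pluripotency genes by TCF7L1 in naive cells, and in EpiSCs it drives genes of the primitive streak.

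All 84 array values of the 7 genes lay above 4.945, a background measure on the log2 scale taken as the 95th percentile of 1194 receptor genes of smell and pheromone sensing. The primed markers Fgf5 (mean 8.16), Otx2 (9.28), Pou3f1 (8.87) and Dnmt3b (9.97) also lay above it, while the primed markers Cer1, Lefty1 and Lefty2 lay below it. Of 15 naive factors 8 lay above it, among them Klf5 (8.76), Gbx2 (7.10) and Stat3 (6.75), and 7 lay below it, among them Esrrb (4.43), Zfp42 (4.59) and Nr0b1 (4.10). Axin2, a target of beta-catenin that checks that CHIR99021 acted, read 6.96, 7.03 and 7.02 on the CHIR arrays, against 5.77, 6.04 and 6.03 on the NT arrays. The Axin2 change between these groups was 1.06 on the log2 scale, or 2.09-fold (95% interval 0.85 to 1.27, limma adjusted p = 4.83e-05). In the same comparison the highest upper bound of any of the 7 genes was 0.59, that of Nanog. For XAV939 alone Axin2 gave no check that passed, with a change of -0.22 against NT (limma adjusted p = 0.418). In CHIR + XAV against CHIR it was -0.57 (limma adjusted p = 0.0788). Over the 6 arrays with XAV939 against the 6 without, the Axin2 difference of -0.40 did pass (limma adjusted p = 0.0375). RNA came from whole cultures, so fewer cells expressing a gene and less RNA per cell cannot be told apart.

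None of the 7 genes passed an adjusted p under 0.05 in any comparison between groups. The comparisons were each treatment against NT, both compounds against either one alone, the interaction, the average effect of each compound over both levels of the other, and an overall test for any difference between the 4 groups. The shares of all genes that passed were 0.421% for CHIR against NT, 0% for XAV against NT, 1.13% for CHIR + XAV against NT, 0.236% for CHIR + XAV against XAV and 0.0251% for CHIR + XAV against CHIR. They were 0% for the interaction, 1.59% for the average effect of CHIR99021, 0.331% for that of XAV939 and 1.16% for the overall test. At these shares, 0 of 7 genes does not set the network apart from genes in general. At an unadjusted p under 0.05, 1 of the 7 genes passed in each of the 3 comparisons with NT: Nanog in CHIR (10.3% of all genes), Sox2 in XAV (11.2%) and Nanog in CHIR + XAV (18.7%). None did in CHIR + XAV against XAV (9.69% of all genes), in CHIR + XAV against CHIR (11.0%) or in the interaction (4.94%). Nanog alone of the 7 did so in the overall test (16.7% of all genes).

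What the arrays exclude was read from the 95% interval of each change, whose outer bound is the largest change still compatible with the data. If arrays of a group share a culture, spread between cultures is not in these intervals. A change called excluded is then excluded only against the spread between arrays. Of the 35 intervals for 7 genes in 5 comparisons between groups, 25 lay wholly within 0.32 on the log2 scale in either direction and 32 within 0.58, a 1.5-fold change. Apart from Nanog and Dppa4, the other 5 genes had no bound beyond 0.36 on the log2 scale, or 1.28-fold, in their 25 intervals. With intervals widened so that all 56 (7 genes in 8 comparisons) hold together, that bound was 1.42-fold. Each of the 5 comparisons placed 5 of the 7 genes within 0.32. Over all genes the share within 0.32 was 70.6% for CHIR, 68.4% for XAV and 59.7% for CHIR + XAV against NT, 70.5% for CHIR + XAV against XAV and 68.8% for CHIR + XAV against CHIR. The share within 0.58 was 98.3%, 98.7%, 97.7%, 98.5% and 98.8% in the same 5 comparisons. The 3 intervals that excluded 0 were those of Nanog in CHIR and in CHIR + XAV and of Sox2 in XAV, all against NT. At a 95% level, 1.75 of 35 intervals would do so on average with no change at all. Over all genes, intervals that excluded 0 (an unadjusted p under 0.05) made up 10.3%, 11.2%, 18.7%, 9.69% and 11.0% in the same 5 comparisons. Beside these shares, 3 of 35 is no excess over genes in general.

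**Figure D1:**
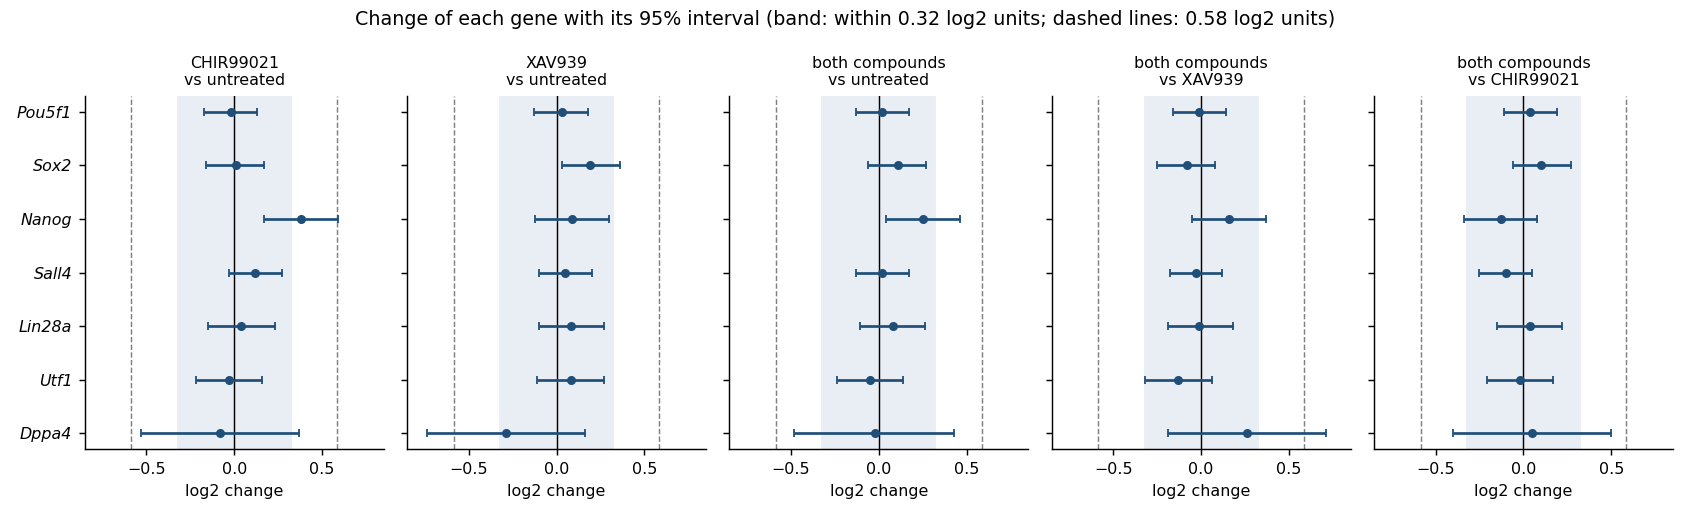
Log2 change (points) with its 95% interval (bars) for each of the 7 genes in 5 comparisons between groups, with shading for changes within 0.32 and dashed lines at 0.58. The bars of Nanog in CHIR and CHIR + XAV and of Sox2 in XAV, each against NT, lie to the right of 0, and those of Dppa4 are the widest.

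Pou5f1 encodes OCT4, the POU-domain factor without which the epiblast loses pluripotency. Its probe read 11.41, 11.49 and 11.43 on the CHIR arrays, 11.46, 11.59 and 11.42 on the XAV arrays and 11.46, 11.55 and 11.43 on the CHIR + XAV arrays. The NT arrays read 11.43, 11.49 and 11.46. All 12 values fell within 0.18 on the log2 scale, and every group overlapped every other. The change against NT was -0.02 in CHIR (95% interval -0.17 to 0.13), 0.03 in XAV (-0.13 to 0.18) and 0.02 in CHIR + XAV (-0.13 to 0.17), with SE 0.0713. Across the 5 comparisons between groups, Pou5f1 changes beyond 1.14-fold were excluded. The residual SD of Pou5f1 within groups was 0.06, at the 5.9th percentile of all genes. RefSeq names 7 related sequences or pseudogenes of Pou5f1, and reads of such copies on the Pou5f1 probe were not tested. The one copy with a probe of its own, Pou5f1-rs4, read between 4.952 and 5.447 over the 12 arrays. RefSeq also names 2 such copies of Nanog, without probes of their own, and their part in the Nanog values was not tested.

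**Figure D2:**
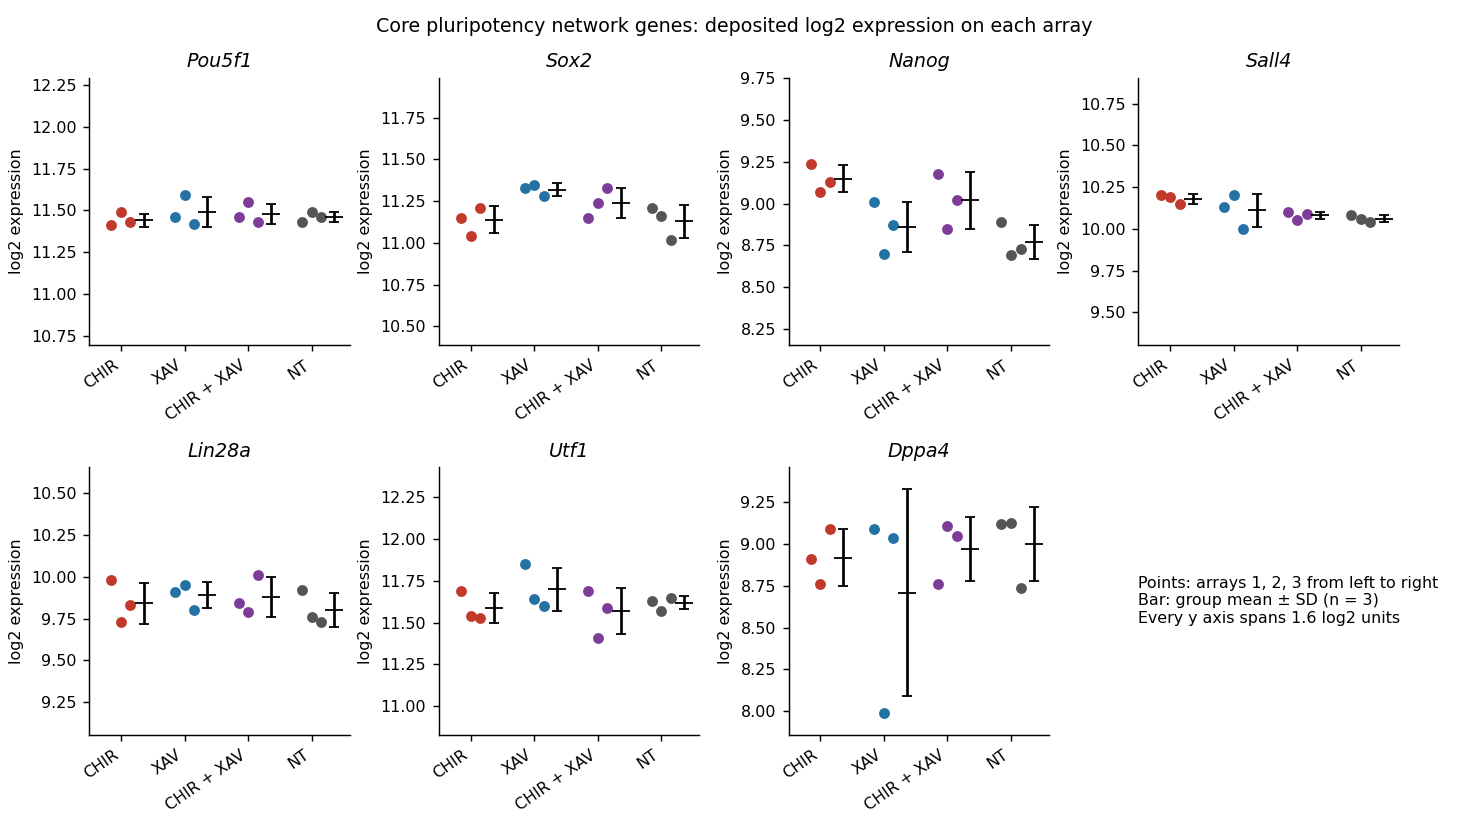
Deposited log2 expression of the 7 genes on each array (points, arrays 1 to 3 from left to right), with the group mean ± SD (bars, n = 3), and with every vertical axis spanning 1.6 log2 units. Pou5f1 and Sall4 are nearly level across all 12 arrays, Nanog is higher in CHIR than in NT on every array, and Dppa4 has 1 low XAV array at 7.99.

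Sox2 encodes the HMG-box partner of OCT4 and is also needed by neural progenitors. Sox2 read 11.33, 11.35 and 11.28 on the XAV arrays and 11.15, 11.04 and 11.21 on the CHIR arrays. It read 11.15, 11.24 and 11.33 on the CHIR + XAV arrays, against 11.21, 11.16 and 11.02 on the NT arrays. The 3 XAV values lay above all 3 NT values, while the CHIR and CHIR + XAV values overlapped those of NT. For Sox2, the XAV change against NT was 0.19, or 1.14-fold (95% interval 0.03 to 0.36, SE 0.0776, unadjusted p = 0.0259, limma adjusted p = 0.383). Of all genes, 12.1% had as large a change in that comparison, and 17.6% had arrays that did not overlap. The exact permutation p of Sox2 was 0.1, the smallest that 3 arrays against 3 allow. In CHIR against NT the Sox2 change was 0.01 (-0.16 to 0.17), so that a change beyond 1.13-fold was excluded. In CHIR + XAV against NT it was 0.11 (-0.06 to 0.27). Over the 6 arrays with XAV939 against the 6 without, Sox2 averaged 11.28 and 11.13, a difference of 0.15 (0.03 to 0.26, limma adjusted p = 0.192, exact permutation p = 0.013). On that comparison 16.9% of all genes had an unadjusted p under 0.05.

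Nanog encodes a homeobox factor that stabilises self-renewal, and its level varies between cells in culture. Nanog read 9.24, 9.07 and 9.13 on the CHIR arrays, 9.01, 8.70 and 8.87 on the XAV arrays and 9.18, 8.85 and 9.02 on the CHIR + XAV arrays. The NT arrays read 8.89, 8.69 and 8.73. All 3 CHIR values lay above all values of NT, whereas the XAV values overlapped those of NT, and the CHIR + XAV values overlapped those of all 3 other groups. The Nanog change in CHIR against NT was 0.38, or 1.30-fold (95% interval 0.17 to 0.59, SE 0.0985, unadjusted p = 0.00145, limma adjusted p = 0.123). It was the largest change of the 7 genes in the 5 comparisons between groups and ranked 235 of 19938 genes by p, and 1.10% of all genes had as large a change. The exact permutation p was 0.1, the smallest the design allows. The 1634 genes within 0.5 of the mean level of Nanog on the arrays had a median change of 0.04.

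In CHIR + XAV against NT the Nanog change was 0.25 (95% interval 0.04 to 0.46, limma adjusted p = 0.19), where genes of like level had a median of 0.08. In XAV against NT it was 0.09 (-0.12 to 0.30). Against XAV alone the CHIR + XAV change was 0.16 (-0.05 to 0.37), and against CHIR alone it was -0.13 (-0.34 to 0.08). The test of the interaction, which subtracts the response to CHIR99021 alone from the response on top of XAV939, gave -0.22 for Nanog (-0.51 to 0.08, limma adjusted p = 0.965), so that a different response to CHIR99021 in the presence of XAV939 was not shown. Over the 6 arrays with CHIR99021 against the 6 without, Nanog averaged 9.08 and 8.81. That difference of 0.27, or 1.20-fold (0.12 to 0.42), had a limma adjusted p of 0.0679 and an exact permutation p of 0.013, and 14.0% of all genes had an unadjusted p under 0.05 there. The adjusted p ran from 0.0163 to 0.155 over 19 other settings and passed under 4 of them, among them leaving out CHIR + XAV replicate 2 (0.0431).

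Promoters of the 2 genes whose intervals excluded 0 are shown from 250 bases before to 50 after the gene start on the plus strand of GRCm38.p6, as RefSeq gives them, because the composite element of OCT4 and SOX2 is part of how the circuit is wired. Capitals mark the octamer core (ATGCAAA, or TTTGCAT on the other strand) and the Sox core (CATTGT, or ACAATG on the other strand).
Nanog, chr6:122707239-122707538: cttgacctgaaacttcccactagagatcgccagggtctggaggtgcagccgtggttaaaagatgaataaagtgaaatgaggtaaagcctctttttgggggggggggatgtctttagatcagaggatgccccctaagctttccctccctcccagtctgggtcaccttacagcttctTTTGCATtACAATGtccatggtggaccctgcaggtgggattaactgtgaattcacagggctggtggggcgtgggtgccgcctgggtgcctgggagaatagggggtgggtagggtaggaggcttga
Sox2, chr3:34649745-34650044: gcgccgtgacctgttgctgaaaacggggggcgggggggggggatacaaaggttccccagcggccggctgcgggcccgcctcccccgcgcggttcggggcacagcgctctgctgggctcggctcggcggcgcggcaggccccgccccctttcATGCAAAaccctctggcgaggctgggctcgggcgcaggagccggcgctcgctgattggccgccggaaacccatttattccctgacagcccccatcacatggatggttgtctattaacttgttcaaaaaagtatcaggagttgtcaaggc
In the Nanog window the octamer core began 75 bases before the start and the Sox core 67 bases before it, 1 base apart and both on the minus strand. In the Sox2 window an octamer core began 99 bases before the start, with no Sox core. Of 32851 promoters of this length, 4.63% held the octamer core, 12.6% the Sox core and 0.813% both. The windows at the gene starts of Pou5f1 and Utf1 held neither. No window was available for Sall4 or Dppa4, so these genes were not searched. A window at a second start of Pou5f1 held a Sox core 158 bases before that start, and one at a start of Lin28a inside the gene held a Sox core 96 bases before it. The Lin28a window also held a TCF/LEF core (CTTTGA, or TCAAAG on the other strand) 72 bases before the start, which the other windows of these genes did not and which 16.0% of all promoters did.

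Sall4 encodes a zinc-finger factor that works with OCT4 and NANOG. Its probe read 10.20, 10.19 and 10.15 on the CHIR arrays, 10.13, 10.20 and 10.00 on the XAV arrays and 10.10, 10.05 and 10.09 on the CHIR + XAV arrays. The NT arrays read 10.08, 10.06 and 10.04. The 3 CHIR values lay above those of NT and of CHIR + XAV, and every other pair of groups overlapped. In CHIR against NT the Sall4 change was 0.12, or 1.09-fold (95% interval -0.03 to 0.27, limma adjusted p = 0.591). In CHIR + XAV against CHIR it was -0.10 (-0.25 to 0.05). Both had an exact permutation p of 0.1. The spread of Sall4 within groups was small (SD 0.055, 4.0th percentile of all genes), and changes beyond 1.20-fold were excluded in the 5 comparisons between groups. Nanog and Sall4 were the 2 of 7 genes whose CHIR and NT arrays did not overlap, against 16.3% of all genes, and Sall4 was the 1 of 7 in CHIR + XAV against CHIR, against 16.1%. Sox2 was the 1 of 7 in XAV against NT, and no gene of the 7 was free of overlap in CHIR + XAV against NT (25.0% of all genes) or against XAV (14.3%).

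Lin28a and Utf1 act beside the transcription factors. LIN28A binds RNA and blocks the maturation of let-7 microRNAs, and UTF1 is a chromatin-bound factor whose gene is a target of OCT4 and SOX2. Lin28a read 9.98, 9.73 and 9.83 on the CHIR arrays, 9.91, 9.95 and 9.80 on the XAV arrays and 9.84, 9.79 and 10.01 on the CHIR + XAV arrays, against 9.92, 9.76 and 9.73 on the NT arrays. Utf1 read 11.69, 11.54 and 11.53 on the CHIR arrays, 11.85, 11.64 and 11.60 on the XAV arrays and 11.69, 11.41 and 11.59 on the CHIR + XAV arrays, against 11.63, 11.57 and 11.65 on the NT arrays. For both genes every pair of groups overlapped. Changes of Lin28a against NT were 0.04 in CHIR (95% interval -0.15 to 0.23), 0.08 in XAV (-0.10 to 0.27) and 0.08 in CHIR + XAV (-0.11 to 0.26). Those of Utf1 were -0.03 (-0.22 to 0.16), 0.08 (-0.11 to 0.27) and -0.05 (-0.24 to 0.14). Across the 5 comparisons between groups the bounds reached 1.20-fold for Lin28a. For Utf1 they reached 0.32 on the log2 scale, in CHIR + XAV against XAV (-0.13, 95% interval -0.32 to 0.06).

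Dppa4 encodes a SAP-domain chromatin protein of early embryos and germ cells, and its probe set the limit of what these arrays could exclude. Dppa4 read 8.91, 8.76 and 9.09 on the CHIR arrays, 9.09, 7.99 and 9.04 on the XAV arrays and 8.76, 9.11 and 9.05 on the CHIR + XAV arrays, against 9.12, 9.13 and 8.74 on the NT arrays. A single XAV array, at 7.99, lay apart, and the other 11 values started at 8.74. The XAV change against NT was -0.29 (95% interval -0.74 to 0.16, limma adjusted p = 0.615), which left changes up to 1.67-fold unexcluded. Without XAV replicate 2 the change turned to 0.07 (-0.21 to 0.35), with a bound of 1.28-fold. The Dppa4 changes in CHIR and in CHIR + XAV against NT were -0.08 (-0.53 to 0.37) and -0.02 (-0.48 to 0.43), and without that array their intervals were -0.33 to 0.18 and -0.28 to 0.23. The residual SD of 0.353 stood at the 99.8th percentile of all genes.

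Dppa4 had a second single-gene probe, which gave tighter values and did not follow the first. It read 8.26, 8.52 and 8.39 on the CHIR arrays, 8.55, 8.64 and 8.54 on the XAV arrays and 8.56, 8.67 and 8.41 on the CHIR + XAV arrays, against 8.57, 8.50 and 8.41 on the NT arrays. On XAV replicate 2, the low array of the first probe, this probe gave the highest of the 3 XAV values. Its changes against NT were -0.10 in CHIR (95% interval -0.29 to 0.08), 0.08 in XAV (-0.10 to 0.27) and 0.05 in CHIR + XAV (-0.13 to 0.24), so that its largest bound in these comparisons was 1.22-fold. Over the 12 arrays the probes correlated at Pearson -0.22 and Spearman 0.12, given as a description. The first probe also correlated at Pearson 0.67 and Spearman 0.47 with the SD of all values on an array. The 2 arrays with the lowest SD, NT replicate 3 (2.135) and XAV replicate 2 (2.14), gave the lowest values of that probe. NT replicate 3 (8.74) lay close to CHIR replicate 2 (8.76), whose SD was 2.182. For the other 6 genes the Pearson correlation lay between -0.35 and 0.41 and the Spearman correlation between -0.46 and 0.38. The part of the array SD in the Dppa4 values was not tested.

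**Figure D3:**
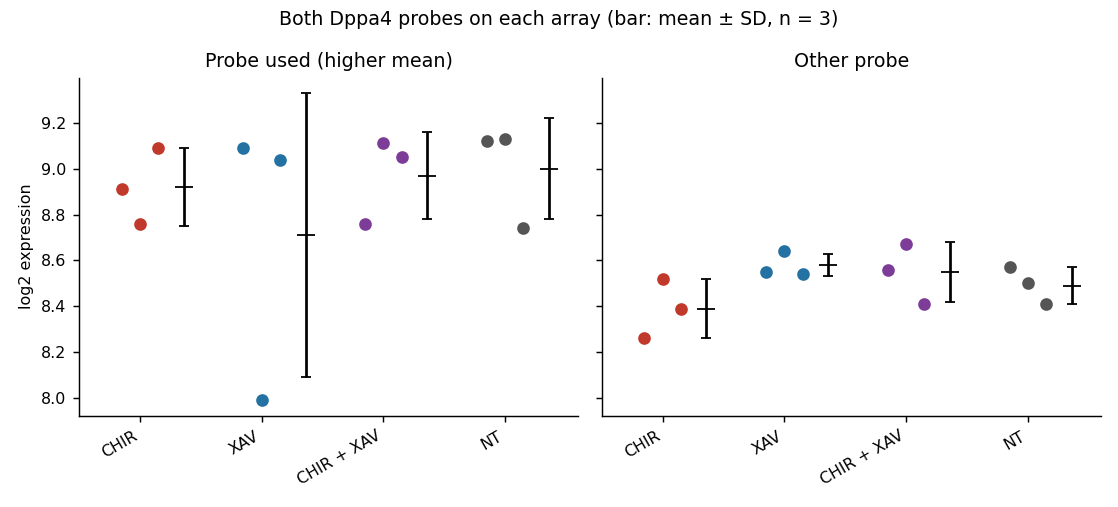
Deposited log2 expression on each array (points, arrays 1 to 3 from left to right) for both probes of Dppa4, with the group mean ± SD (bars, n = 3). The 1 low XAV point at 7.99 appears for the probe used and has no counterpart for the other probe, at 8.64 on the same array.

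When the 4 groups were ordered by their mean, all 21 pairs of neighbouring groups overlapped in their array values. Some neighbouring means still differed by more than the residual SD. For Nanog CHIR + XAV lay 0.16 above XAV (SD 0.13), and for Sox2 it lay 0.1 above CHIR (SD 0.08). For Sall4 CHIR lay 0.07 above XAV (SD 0.06). In the other pairs the rounded difference did not exceed the rounded SD. Nanog, Sall4 and Sox2 also had groups further apart in this order whose arrays did not overlap. From highest to lowest mean, Nanog ran CHIR, CHIR + XAV, XAV, NT, and Sall4 ran CHIR, XAV, CHIR + XAV, NT. Sox2 and Lin28a both ran XAV, CHIR + XAV, CHIR, NT. Among the 21 pairs of the 7 genes, Pearson correlations over 12 arrays ran from -0.61 (Pou5f1 and Dppa4) to 0.67 (Sox2 and Lin28a) with a median of 0.18, as a description. XAV replicate 2 held both the highest Pou5f1 value (11.59) and the lowest Dppa4 value (7.99), and the Spearman correlation of that pair was -0.14. For Pou5f1 and Nanog the Pearson and Spearman correlations were -0.57 and -0.62. The values behind all these correlations share arrays, normalization and, within a group, treatment.

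Against all genes, the 7 spread to both ends of the range of replicate error. The residual SD stood at the 4.0th percentile for Sall4, the 5.9th for Pou5f1 and the 20.0th for Sox2. It stood at the 47.3rd for Lin28a, the 49.7th for Utf1, the 70.9th for Nanog (SD 0.132) and the 99.8th for Dppa4. Among genes within 0.5 of each one's own mean, Sall4 stood at the 13.5th percentile, Pou5f1 at the 31.5th, Sox2 at the 51.6th and Lin28a at the 67.9th. Nanog stood at the 80.3rd, Utf1 at the 82.9th and Dppa4 at the 99.7th. A change of a given size was therefore easiest to exclude for Sall4 and Pou5f1.

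**Figure D4:**
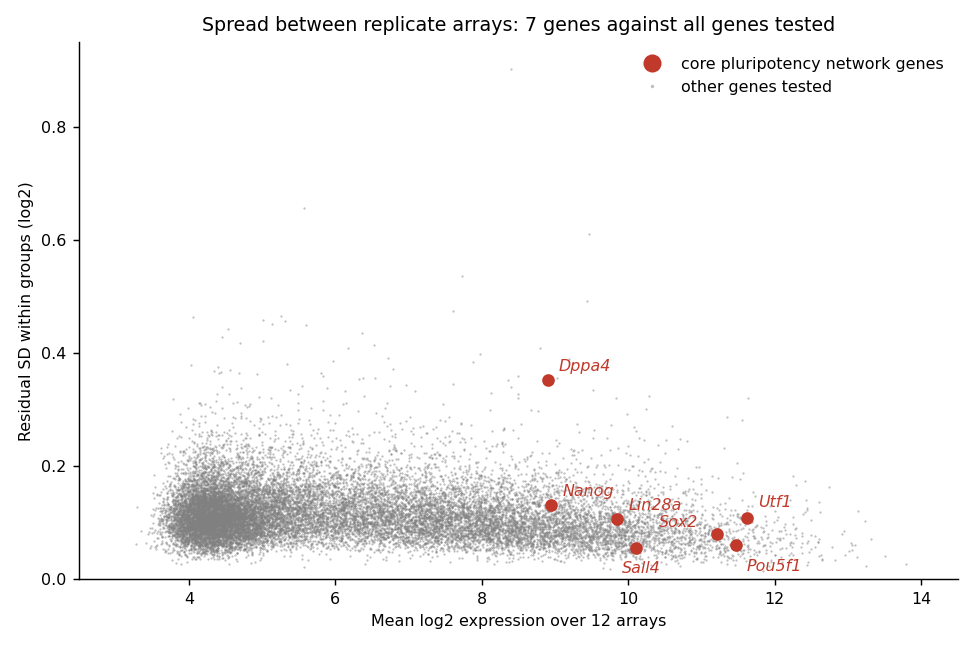
Residual SD within groups (log2) against mean log2 expression over 12 arrays, with 1 point per gene, the 7 core genes in red and the other genes tested in grey. Sall4 (0.055) and Pou5f1 (0.06) have the lowest residual SD of the 7 genes, and Dppa4 (0.353) lies above nearly all other genes.

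The genes whose array values most resembled each core gene were named by Pearson correlation over the 12 arrays, as a description. They are the highest correlations among 11594 genes with a mean above background. For Pou5f1 they were Cdca5 (0.863) and Mrpl17 (0.863), for Sox2 Rint1 (0.928) and Man2b2 (0.910), and for Nanog Eprs (0.929) and Rlf (0.891). For Sall4 they were Rbbp9 (0.856) and Cat (0.829), for Lin28a Rnf40 (0.908) and Psen2 (0.900), and for Utf1 Rbpms2 (0.904) and Arhgap1 (0.893). None of the 7 was among the 2 genes nearest to another of the 7. For Dppa4 they were BC055324 (0.962) and Snord42b (0.947), which also had their lowest value on XAV replicate 2, and without that array the correlations were 0.817 and 0.81. Cdca5 and Mrpl17, like Pou5f1, had their highest value on that array, and without it their correlations with Pou5f1 were 0.727 and 0.78. None of these 14 genes passed the overall test (limma adjusted p of 0.208 or more). They were picked for likeness to genes that did not pass it, so this adds nothing about the core genes.

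A wider list of 34 measured pluripotency network factors, of which 33 lay above background, had 0 genes past an adjusted p under 0.05 in the 5 comparisons between groups and in the interaction. At an unadjusted p under 0.05, 3 of the 34 passed in CHIR, 3 in XAV and 5 in CHIR + XAV against NT, 6 in CHIR + XAV against XAV, and 0 in CHIR + XAV against CHIR and in the interaction. In the average effect of CHIR99021 it was 8. The shares over all genes were 10.3%, 11.2%, 18.7%, 9.69%, 11.0%, 4.94% and 14.0% in these 7 comparisons, in the same order. In the average effect of XAV939, 0 of the 34 passed after adjustment and 3 at the unadjusted threshold (16.9% of all genes). Whether these 34 factors differed from the shares over all genes was not tested. Their median change against NT was -0.01 in CHIR, 0.06 in XAV and -0.03 in CHIR + XAV, where the median of the core genes was 0.01, 0.08 and 0.02 and that of all genes -0.01, 0.00 and -0.01. The exception in the average effect of CHIR99021 was Fgf4, which encodes a growth factor and is a classical target of OCT4 and SOX2. It also passed the overall test (limma adjusted p = 0.0172). Fgf4 read 8.65, 8.63 and 8.66 on the CHIR arrays and 8.56, 8.88 and 8.83 on the CHIR + XAV arrays. It read 9.03, 9.45 and 9.17 on the XAV arrays and 9.05, 9.13 and 9.24 on the NT arrays. The 6 arrays with CHIR99021 thus all lay below the 6 without it, with a difference of -0.48 (SE 0.0738, limma adjusted p = 0.00248). In CHIR against NT alone the Fgf4 change was -0.49 (limma adjusted p = 0.0533).

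Other lists did hold genes that passed. Of 15 naive factors, 8 of them above background, Gbx2, a homeobox gene that responds to beta-catenin, rose by 1.14 in CHIR against NT (limma adjusted p = 1.06e-05) and by 0.53 in CHIR + XAV against NT, and 14 did not pass in either. Klf2 (0.21) and Tbx3 passed with it in the average effect of CHIR99021. No size is given for Tbx3, whose means in NT (4.93) and XAV (4.77) lay below background. Of 13 primed markers, 10 above background, Nodal, the signal that sustains primed pluripotency, rose by 1.76 in CHIR against NT (limma adjusted p = 2.39e-08) and no other passed. Of 14 measured beta-catenin targets, 9 above background, Axin2, Lgr5, Tnfrsf19 and Znrf3 rose in CHIR against NT, as did Dkk1 and Sp5, whose means over all arrays lay below background, and Myc fell by 0.40 in the average effect of CHIR99021.

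Markers of other cell types that the cultures could hold were set beside the core genes. Of 12 measured primitive streak markers, 3 above background, Eomes, Wnt8a, Sp5 and Cdx2 rose in CHIR against NT. The change was 0.59 for Eomes and 0.72 for Wnt8a. No size is given for Sp5, which is also on the list of beta-catenin targets, or for Cdx2, since both had NT means below background (4.34 and 4.37), and Cdx2 was below it in all 4 groups. Their summed level ran from 9.76 to 9.79 in CHIR, 9.13 to 9.17 in XAV, 9.46 to 9.61 in CHIR + XAV and 9.24 to 9.32 in NT on the log2 scale. This order of groups, CHIR, CHIR + XAV, NT and XAV, differs from that of Nanog only in its last 2 places, and its part in the Nanog values was not tested. Among 9 neural markers (8 above background) Pax6 fell by 0.25 in the average effect of CHIR99021, as did Ascl2 by 0.26 and Plet1 by 0.38 among 9 trophectoderm markers (5 above background). None of 10 endoderm markers (6 above background) and none of 13 fibroblast and feeder markers (4 above background) passed in any comparison by limma. At an unadjusted p under 0.05 the highest counts were 2 of 10 for the endoderm list, in the average effect of CHIR99021 (14.0% of all genes), and 4 of 13 for the fibroblast list, in CHIR + XAV against NT (18.7%). The trophectoderm list had 5 of 9 in CHIR against NT (10.3%). The 3 endoderm markers with the smallest p of the overall test were Gata6, Sox17 and Dab2, and the 3 of fibroblasts were Thy1, Pdgfrb and Twist2. The summed level of the fibroblast list ran from 8.88 to 8.91 in CHIR, 8.94 to 9.03 in XAV, 8.96 to 9.00 in CHIR + XAV and 8.97 to 9.05 in NT.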

How the data were processed

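Per the labels' protocols, biotin-labelled total RNA was hybridised to Affymetrix arrays. The authors deposited 1 value per probe and array, taken here as log2 expression because the range was 2.525 to 14.281 and no header gives a scale. The submitters' processing notes list Partek without a version, and how background, scaling and probe summary were handled is not given in the sources used here. Medians of the arrays lay between 5.219 and 5.271 and correlations between arrays between 0.9896 and 0.9951, no 2 arrays were identical, and no further normalization was applied. Precision is limited by the number of arrays.

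Of 35399 probes, the platform annotation gave 1 gene to 21789 and several genes to 1621, and 11989 were unnamed here. Symbols were updated through RefSeq (GRCm38.p6), and 91 probes without a match kept their own. Where a gene had several probes (999 genes), the one with the highest mean was used. Group means were fitted to all 12 arrays and 19938 genes with limma 3.58.1 in R 4.3.3 (lmFit and eBayes, two-sided, residual degrees of freedom 8, prior 8.03), with Benjamini-Hochberg adjustment over all genes within a comparison and 95% intervals per gene. Exact two-sided permutation tests used scipy 1.17.1 and figures matplotlib 3.10.9 in Python 3.11.15. The scripts were tested on simulated data. Named were the 7 genes, the 2 genes most like each, the members of each other list that passed in any comparison and otherwise up to 3 with the smallest p of the overall test, and Axin2. The members and lists were chosen with earlier results of these data known. Alternatives were quantile normalization, median centring, a filter on dim genes, the mean of all probes, only the compared groups, a trended and robust prior, a replicate block and leaving out each array, and, chosen after seeing the data, the other Dppa4 probe.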

Additional observations from a re-analysis of the deposited data

Results flagged for a closer look

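Single arrays lay far from the others for 2 of the 7 genes when the 6 arrays with and the 6 without each compound were taken as groups. Dppa4 on XAV replicate 2, at 7.99, lay apart both among the 6 arrays with XAV939, where its gap to the nearest array was 0.688 of the whole range, and among the 6 arrays without CHIR99021, where it was 0.655. Utf1 on XAV replicate 1, at 11.85, lay above the other arrays without CHIR99021, with a gap of 0.731 of the range. The critical value of Dixon's test for 6 arrays is 0.625. There were 28 such groups, and chance alone marks about 1 in 20. No explanation was tested.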

How the results depend on the processing

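Comparisons between groups were computed under 20 other settings, of which 12 left out 1 array, and the interaction and average effects under 19, since fitting only the compared groups applies to pairs. Of 1099 changes of the 7 genes recomputed in this way, 62 had another sign, all of them of changes that passed in neither setting, and 5 passed an adjusted p under 0.05, all of Nanog. With the replicate number as a block, 1 of the 7 genes, Nanog (0.38, limma adjusted p = 0.0341), passed in CHIR against NT, and 1, Nanog again (limma adjusted p = 0.0163), in the average effect of CHIR99021. For that average effect the filter on dim genes (limma adjusted p = 0.0406) and the trended and robust prior (0.0443) also gave 1, and leaving out 1 array gave 0 to 1 (1 only without CHIR + XAV replicate 2, 0.31). The replicate block changed no other call. Same-numbered arrays of different groups deviated together with a median correlation of 0.01 over 18 pairs (-0.247 to 0.201, 6 over 0.1), so the numbers were not taken as pairs, although array 1 was the highest and array 2 the lowest for Nanog in all 4 groups. Adjusted p of Nanog ran from 0.0341 to 0.371 in CHIR against NT and from 0.0163 to 0.155 in the average effect. The largest bound of the 5 genes other than Nanog and Dppa4 ran from 0.33 to 0.41 on the log2 scale. Over all genes, the number that passed ran from 34 to 104 in CHIR against NT, 10 to 528 in CHIR + XAV against NT, 21 to 64 against XAV and 0 to 10 against CHIR. It ran from 211 to 420 for the average effect of CHIR99021, 2 to 237 for that of XAV939, 115 to 387 for the overall test and 0 to 1 for the interaction, and was 0 throughout for XAV against NT. The cause of these shifts was not tested. Probes near background limit several of the other lists, and 3 arrays a group limit all results.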
